A study of Homo sapiens with 12 samples.

Results

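The 8 genes described here are the antigens used for the cell sort, CD24 and CD44, and 6 genes used as markers of stem-like cells in breast cancer: ALDH1A1, ALDH1A3, PROM1, PROCR, BMI1 and ABCG2. They were taken by symbol from count tables of 26475 genes, and 7 of the 8 were among the 15461 genes with enough counts to be tested; PROM1 was not. RNA was sequenced from SUM159 (SUM159PT), a human triple-negative breast cancer line with a mesenchymal character, grown as tumours after injection into female NOD scid gamma mice that were 8 weeks old at injection. These mice lack mature lymphocytes and natural killer cells but keep their own stroma, vessels and myeloid cells. Tumour cells were stained with antibodies against human CD24 and CD44, and sorted into a CD44+ CD24-low and a CD44+ CD24-high population, which the submitters describe as separating stem from differentiated cancer cells. The mice received a standard diet (labelled untreated, here CTR) or cycles of a fasting-mimicking diet (FMD) on 4 days of each week. There were 4 groups of 3 libraries: control CD24-low (CTR_LO), control CD24-high (CTR_HI), FMD CD24-low (FMD_LO) and FMD CD24-high (FMD_HI). All 12 libraries come from 1 cell line, and the labels do not say whether each library is 1 tumour or a pool, so p-values measure only the spread between these libraries.

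CD24 is a small, heavily glycosylated protein held in the membrane by a lipid anchor, and CD44 is the main surface receptor for the matrix polymer hyaluronan. In breast tumours, cells with CD44 and little CD24 on their surface have long been used as a population enriched for tumour-initiating cells. High aldehyde dehydrogenase activity, measured in living cells, marks an overlapping but separate population, and ALDH1A1 and ALDH1A3 are the enzymes most often tied to it. PROM1 (CD133) is a membrane protein of cell protrusions, PROCR is the endothelial protein C receptor and marks stem cells of the mammary gland, BMI1 is a Polycomb protein that silences genes, and ABCG2 is a drug efflux pump.

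The libraries were not equally deep or alike. Assigned counts ran from 17736610 to 18579816 in FMD_LO and from 29049144 to 47587142 in the other 9 libraries. The first principal component of log2 values held 57.4% of the variance and set FMD_LO (79.5 to 88.9) apart from the other groups (−46.1 to 2.35, the highest being control CD24-low replicate 2). Markers of other cell types moved with the same group. Summed CPM (counts divided by the library total and multiplied to a common scale, after correction for library composition) of 14 leukocyte markers were 155 to 183 in FMD_LO against 15.4 to 43.2 in the other groups, although TYROBP and CD52 had no count in FMD_LO. Those of 11 fibroblast markers were 47103 to 69857 in FMD_LO and 14007 to 35521 elsewhere, and those of 10 endothelial markers 49.3 to 102 against 29 to 41.6. Of 9 epithelial markers the sum was 5744 to 8424 in FMD_LO and 7977 to 15487 elsewhere. Single markers did not all follow these sums. In FMD_LO against CTR_LO, 7 of 10 tested leukocyte, 7 of 11 fibroblast and 2 of 9 endothelial markers were called higher (edgeR, adjusted p below 0.05). The share over all genes was 12%. ERG, the most abundant endothelial marker, was not called (log2 difference −0.08). Of the epithelial markers 5 were called lower and 1 higher, against 4.33% lower over all genes. Of 5 mesenchymal markers, led by FN1, the sum was 12195 to 23853 over all libraries. ERBB2 averaged 63.6 to 75.1 CPM over the groups, and PGR had too few counts to be tested. The sources used here do not say whether mouse reads were removed before counting, so counts of these and other genes may include reads from host cells, which was not tested. The part of these marker differences in the results below was not tested, and in bulk RNA fewer cells of a type cannot be told apart from less RNA per cell.

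Of the 2 sort antigens, one was abundant and the other close to the lower end of what could be tested. CD44, on chromosome 11 (GRCh38.p14, 35139171 to 35232402, plus strand), averaged 936 CPM over the 12 libraries, at percentile 99 of all genes tested. CD24, on chromosome 6 (106969831 to 106976855, minus strand), averaged 1.94 CPM, at percentile 20.3, from 734 counts in all. Per kilobase of exon the levels were 93.6 CPM for CD44 and 0.625 CPM for CD24. CD44 has 39 curated transcripts in RefSeq, whose isoforms the gene counts do not separate.

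CD24 counts carry a limit of sequence. Several processed copies of CD24 lie elsewhere in the genome, and 4.95% of the 50-base windows of CD24 transcripts also occur in another gene, 117 of them in CD24P4 on chromosome Y (GRCh38, 18992467 to 18992709, minus strand). The coding sequence of CD24 and the matching stretch of CD24P4 are shown because reads inside them can match both. How far this changed the CD24 counts was not tested. They are 243 bases long and differ at 2 positions, which are in capitals, and the longest run they share is 113 bases.
CD24 coding sequence: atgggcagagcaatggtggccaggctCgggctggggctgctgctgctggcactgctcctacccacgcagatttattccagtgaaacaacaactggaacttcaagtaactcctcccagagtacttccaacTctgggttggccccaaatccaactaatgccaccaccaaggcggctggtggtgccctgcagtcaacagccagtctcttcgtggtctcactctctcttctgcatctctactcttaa
CD24P4: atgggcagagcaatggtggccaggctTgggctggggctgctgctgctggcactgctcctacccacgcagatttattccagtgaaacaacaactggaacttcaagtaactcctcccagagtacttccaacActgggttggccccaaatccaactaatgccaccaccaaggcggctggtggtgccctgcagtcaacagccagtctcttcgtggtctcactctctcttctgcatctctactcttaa

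CD24 mRNA did not separate the sorted populations. In replicates 1, 2 and 3 it was 2.82, 2.32 and 1.31 CPM in CTR_LO and 2.86, 1.41 and 1.43 CPM in CTR_HI. Under the fasting-mimicking diet it was 1.90, 1.83 and 1.03 CPM in FMD_LO and 1.64, 3.27 and 1.43 CPM in FMD_HI. The ranges of all 4 groups overlapped, and group means in order were 2.15 ± 0.77 (CTR_LO), 2.11 ± 1.01 (FMD_HI), 1.90 ± 0.827 (CTR_HI) and 1.59 ± 0.481 CPM (FMD_LO; SD, n = 3 each). The library highest in CD24, FMD_HI replicate 2, held 109 counts, and the lowest, FMD_LO replicate 3, held 19. CD24-high minus CD24-low was −0.18 ± 0.40 on the log2 scale (SE) under the control diet, with an approximate 95% interval of −1.05 to 0.69, and 0.42 ± 0.43 (−0.51 to 1.34) under the fasting-mimicking diet. The adjusted p-values were 1 and 0.584 (edgeR quasi-likelihood test with Benjamini-Hochberg adjustment over all genes tested, used throughout). The sort read CD24 protein on the cell surface, so these mRNA values do not check the gates.

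**Figure D1:**
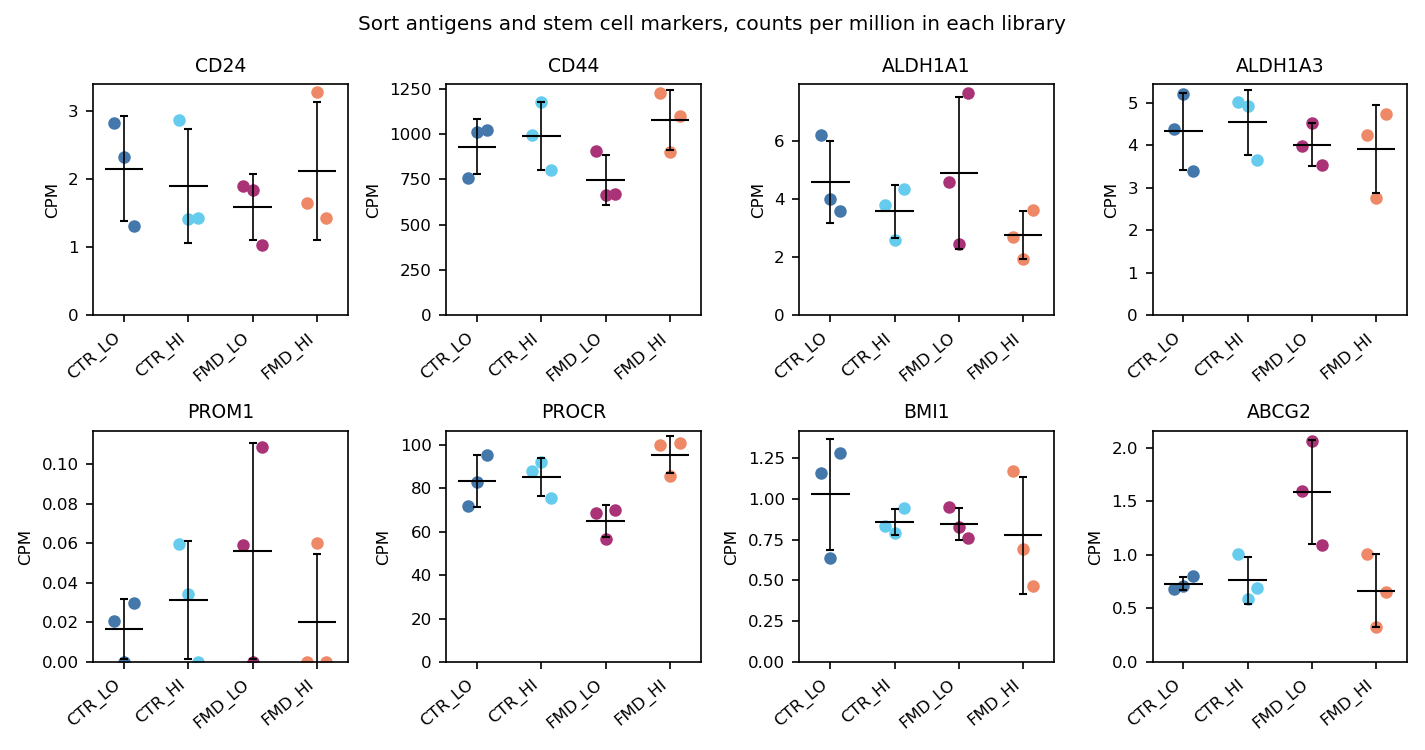
Scaled CPM (linear axis from 0, a separate scale for each gene) in the 12 libraries, with points for libraries, a bar for the group mean and whiskers for 1 SD (n = 3). PROCR and ABCG2 are the genes in which the FMD_LO libraries lie wholly outside CTR_LO and FMD_HI, with PROCR at 56.6 to 69.8 and ABCG2 at 1.09 to 2.06.

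CD44 mRNA was high in every library and varied by 1.84-fold from the lowest to the highest. CTR_LO replicates 1, 2 and 3 held 756, 1012 and 1022 CPM, and those of CTR_HI 993, 1179 and 804. FMD_LO held 906, 667 and 669 CPM and FMD_HI 1229, 901 and 1100. Replicates 2 and 3 of FMD_LO were the lowest libraries of the series, and each neighbouring pair of groups in the order FMD_HI (1076 ± 165), CTR_HI (992 ± 188), CTR_LO (930 ± 151) and FMD_LO (747 ± 137) overlapped. Under the control diet CD24-high cells differed from CD24-low cells by 0.09 ± 0.18 (−0.30 to 0.49, adjusted p = 1). Under the fasting-mimicking diet the difference was 0.53 ± 0.18 (0.13 to 0.92), which missed the threshold of 0.05 (adjusted p = 0.0775). It passed with replicate number as a block in the fasting-mimicking diet only (0.53 ± 0.16, adjusted p = 0.0372) and without FMD_LO replicate 1 (0.70, adjusted p = 0.0379), and over all 20 alternatives the adjusted p ran from 0.0116 to 0.256.

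PROCR, on chromosome 20 (35171096 to 35216259, plus strand), encodes a receptor that presents protein C to the thrombin and thrombomodulin complex and so promotes its activation. In the main edgeR fit, which has no block, it was the only one of the 7 tested members to pass the threshold in any of the 6 comparisons. CTR_LO libraries held 71.7, 82.9 and 95.4 CPM of PROCR and CTR_HI libraries 88.0, 92.1 and 75.3. FMD_LO libraries held 68.7, 56.6 and 69.8 CPM, and FMD_HI libraries 99.7, 85.7 and 101. Every FMD_LO library was below every other library of the series, while the remaining 3 groups overlapped. PROCR was higher in CD24-high than in CD24-low cells of mice on the fasting-mimicking diet, at 95.4 ± 8.42 against 65.0 ± 7.32 CPM (0.55 ± 0.14, 0.26 to 0.85, adjusted p = 0.0135). This made 1 of 7 members called in that comparison, where 14% of all genes tested were called, 1.84% as higher and 12.2% as lower. With replicate number as a block in that diet only the value was 0.56 ± 0.12 (adjusted p = 0.00694). The call can be lost with a single library. Without FMD_LO replicate 2 the adjusted p was 0.0882, without FMD_HI replicate 1 it was 0.0564 and without FMD_HI replicate 3 it was 0.0552. Over all 12 fits that leave out a library the difference stayed between 0.47 and 0.65, and 9 of them called PROCR. Of all 20 alternatives 17 called it.

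The same PROCR difference was close to 0 under the control diet (0.03 ± 0.14, −0.26 to 0.32, adjusted p = 1). FMD_LO was below CTR_LO by −0.36 ± 0.14 (−0.65 to −0.06), without overlap of libraries but short of the threshold (adjusted p = 0.0903). FMD_HI against CTR_HI gave 0.17 ± 0.14 (adjusted p = 0.928). The test of whether the CD24-high to CD24-low difference itself changed with diet gave 0.52 ± 0.19 (0.11 to 0.94, adjusted p = 0.182), so a change of PROCR with diet was not shown.

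CD44 and PROCR moved together across libraries. Pearson's r of their log2 CPM was 0.887 over the 12 libraries, 0.902 over the 9 libraries outside FMD_LO and 0.786 after subtracting group means, given as descriptions because the points share library and depth. The next largest in size over the 12 libraries was −0.589, for PROCR and ABCG2. That value rests on the FMD_LO group: it was 0.206 over the 9 libraries outside FMD_LO and 0.141 after subtracting group means. Genes that are not members correlated more closely over the 12 libraries with PROCR (TUFM, 0.981) and with CD44 (PGAM1, 0.946). The correlation of CD44 with PROCR is therefore not particular to that pair.

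**Figure D2:**
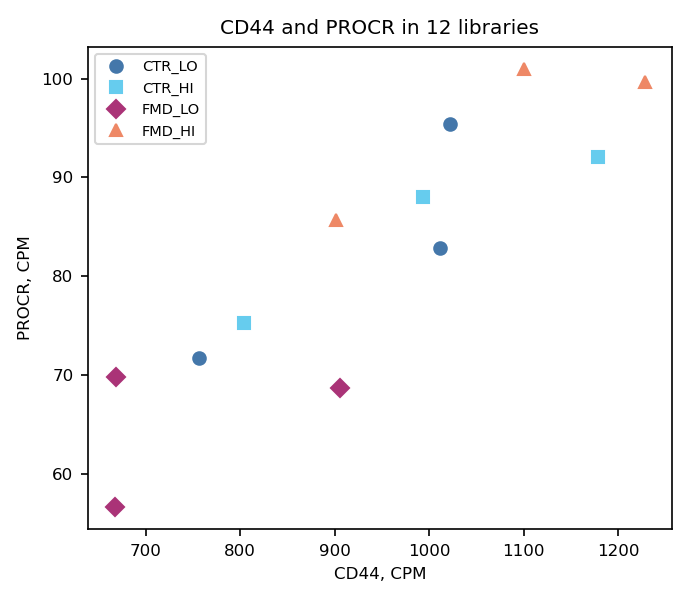
PROCR against CD44 in scaled CPM (linear axes that do not start at 0), 1 point per library, with colour and shape for the group. The 3 FMD_LO libraries lie lowest in PROCR, and within the other groups libraries with more CD44 have more PROCR except for the upper pair in FMD_HI.

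The 250 bases before the start that RefSeq's promoter table (GRCh38.p14) uses for each of CD44 and PROCR are shown, with matches to the motifs below in capitals. Shared regulation of these genes was not tested. CD44 is at chr11:35138921-35139170 and PROCR at chr20:35171822-35172071, both on the plus strand. The start that the table uses for PROCR lies downstream of 35171096, where RefSeq's gene span begins, so the PROCR window lies inside that span, while the CD44 window ends at the base before its span.
CD44 promoter: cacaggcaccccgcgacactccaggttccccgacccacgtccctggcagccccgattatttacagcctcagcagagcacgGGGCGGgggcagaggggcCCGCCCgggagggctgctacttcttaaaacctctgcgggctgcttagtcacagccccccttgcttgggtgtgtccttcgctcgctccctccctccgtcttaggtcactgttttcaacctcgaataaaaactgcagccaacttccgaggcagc
PROCR promoter: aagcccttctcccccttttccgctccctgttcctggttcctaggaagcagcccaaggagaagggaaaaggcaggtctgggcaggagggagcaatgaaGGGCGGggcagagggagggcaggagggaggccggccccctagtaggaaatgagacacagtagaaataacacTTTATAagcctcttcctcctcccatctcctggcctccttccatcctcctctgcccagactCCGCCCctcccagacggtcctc

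Each sequence held 2 matches to the GC box (GGGCGG, either strand), which 42.6% of the 35116 promoter windows of that length also hold. PROCR had 1 match to the TATA box letters TATAAA, on the opposite strand, which 10.7% of windows hold, and CD44 had none. Neither held CCAAT (32% of windows), the E-box CACGTG (6.34%), the AP-1 letters TGANTCA (6.57%) or the TEAD letters CATTCC (11.9%). These are letter matches and not binding sites.

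ABCG2, an efflux pump that exports many anticancer drugs and the dye used to define side-population cells, lies on chromosome 4 (88090264 to 88231626, minus strand). It had 306 counts in all. It was highest in FMD_LO, at 1.60, 2.06 and 1.09 CPM from 27, 35 and 20 counts. The other groups held 0.684, 0.705 and 0.802 CPM (CTR_LO), 1.01, 0.586 and 0.687 (CTR_HI) and 1.01, 0.330 and 0.650 (FMD_HI). No library outside FMD_LO reached 1.09 CPM, and the other 3 groups overlapped. CD24-high minus CD24-low under the fasting-mimicking diet was −1.25 ± 0.41 (−2.14 to −0.37) and missed the threshold (adjusted p = 0.0603), as it did with the block in that diet only (−1.29 ± 0.42, adjusted p = 0.0552). DESeq2 put it past the threshold (−1.27, adjusted p = 0.0352), as did leaving out FMD_HI replicate 1 (−1.68, adjusted p = 0.0294) or FMD_LO replicate 3 (−1.45, adjusted p = 0.0469). Without FMD_HI replicate 2 it was smaller, at −0.91 (adjusted p = 0.187), and without FMD_LO replicate 2 it was −1.01 (adjusted p = 0.247). Over all 20 alternatives the adjusted p was 0.0294 to 0.247. FMD_LO minus CTR_LO was 1.11 ± 0.41 (0.24 to 1.98, adjusted p = 0.0796), and the change of the population difference with diet was −1.32 ± 0.58 (−2.56 to −0.08, adjusted p = 0.29). Between the populations on the control diet it was 0.07 ± 0.41 (−0.81 to 0.94).

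ALDH1A1 and ALDH1A3 oxidise retinaldehyde to retinoic acid. ALDH1A1 lies on chromosome 9 (72900671 to 72953053, minus strand) and ALDH1A3 on chromosome 15 (100879831 to 100916626, plus strand). Per kilobase they averaged 1.39 and 0.727 CPM, ranks 9 and 12 of 19 aldehyde dehydrogenase genes, below ALDH18A1 (27.5), a mitochondrial enzyme of proline synthesis.

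On the control diet ALDH1A1 was 6.20, 4.00 and 3.59 CPM in CD24-low cells and 3.78, 2.59 and 4.35 CPM in CD24-high cells. On the fasting-mimicking diet it was 4.57, 2.47 and 7.65 CPM and 2.71, 1.95 and 3.61 CPM. Within each diet the CD24-low mean was the higher one, but the groups overlapped, and FMD_LO replicates 2 and 3 were themselves 2.47 and 7.65. CD24-high minus CD24-low was −0.37 ± 0.37 (−1.16 to 0.43, adjusted p = 1) on the control diet and −0.83 ± 0.38 (−1.65 to −0.01, adjusted p = 0.184) on the fasting-mimicking diet. With the block in that diet only it was −0.75 ± 0.27 (adjusted p = 0.0822). Without FMD_LO replicate 3, the highest library, it was −0.33 (adjusted p = 0.596), and over the 12 fits that leave out a library it ran from −1.13 to −0.33.

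ALDH1A3 was the steadier of the pair. Control libraries held 4.39, 5.21 and 3.39 CPM (CTR_LO) and 5.03, 4.93 and 3.66 (CTR_HI). Those of the fasting-mimicking diet held 3.98, 4.53 and 3.53 CPM (FMD_LO) and 4.25, 2.76 and 4.73 (FMD_HI), and all groups overlapped. The interval for FMD_HI minus FMD_LO was −0.56 to 0.49 and that for CTR_HI minus CTR_LO −0.44 to 0.58. Opposite-strand reads at ALDH1A3 numbered 15 to 59 per library, where GENCODE 29 places an antisense gene over 27.5% of its exon bases; those reads are not in the values given.

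**Figure D3:**
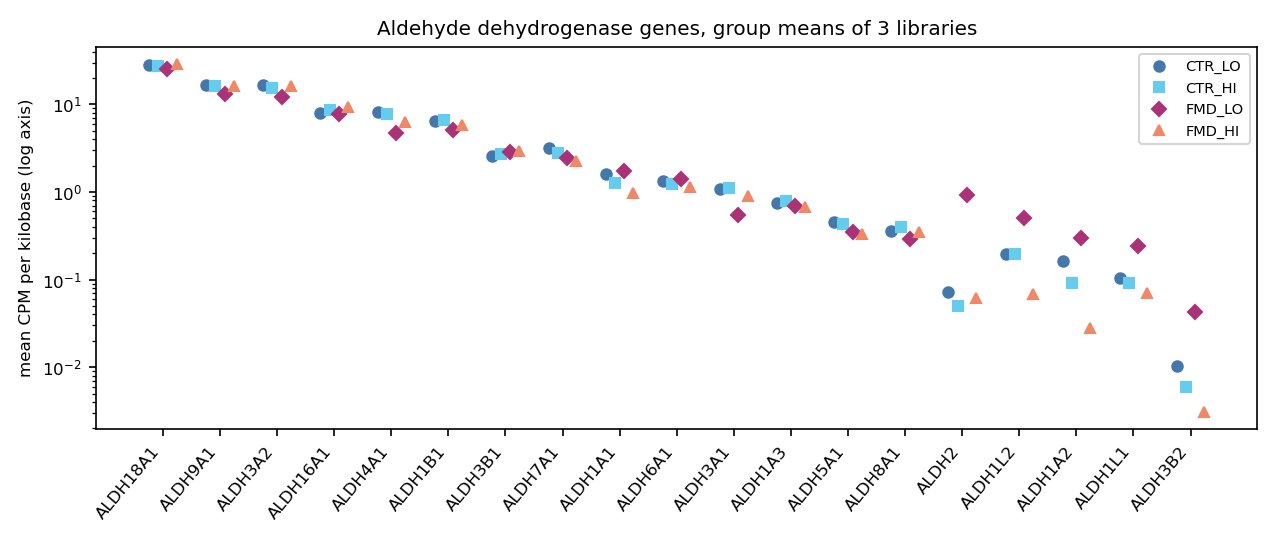
Group means (n = 3, no error shown) of CPM per kilobase of exon for 19 aldehyde dehydrogenase genes on a log axis, in order of their mean over 12 libraries; values of 0 would be missing. ALDH1A1 and ALDH1A3 hold ranks 9 and 12. The FMD_LO points of several genes lie above those of the other groups, among them ALDH2, ALDH1L1 and, by little, ALDH1A1 (1.72 against 1.61 in CTR_LO). Those of the genes at ranks 1 to 6 lie below the other groups, for example ALDH4A1 (4.65 against 6.27 in FMD_HI and 8.24 in CTR_LO).

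BMI1, a Polycomb subunit that represses the INK4 locus and sustains self-renewal, lies on chromosome 10 (22321099 to 22331706, plus strand). Control CD24-low libraries held 1.16, 0.638 and 1.28 CPM and control CD24-high libraries 0.833, 0.793 and 0.945. With the fasting-mimicking diet the values were 0.950, 0.824 and 0.760 CPM in CD24-low and 1.17, 0.690 and 0.468 CPM in CD24-high cells. All groups overlapped, and the intervals between populations were −1.06 to 0.53 on the control diet and −0.99 to 0.73 on the fasting-mimicking diet. The counts are uncertain as a level. The read-through gene COMMD3-BMI1 shares 1000 exon bases with BMI1 in GENCODE 29, 23.3% of BMI1's exons, and had 0 counts in all 12 libraries against 324 for BMI1. In RefSeq the span of COMMD3-BMI1 covers 97.9% of the BMI1 span, introns included, so the overlap may be larger in another annotation. STAR's gene counting assigns a read that overlaps more than one gene to neither, so the values for BMI1 may understate its mRNA; how many reads were left out was not tested, and the annotation behind the counts is not given in the sources used here.

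PROM1, on chromosome 4 (15968228 to 16084023, minus strand), was near absent. The control groups had 2 counts (CTR_LO) and 3 counts (CTR_HI) and those of the fasting-mimicking diet 3 (FMD_LO) and 2 (FMD_HI), 10 in all, with 5 libraries at 0 and none above 2 counts. Its highest library value was 0.109 CPM, and no difference could be assessed at that depth.

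Calls among the 7 tested members were few, and several of the intervals given above are wide. None of 7 was called between the populations on the control diet, where edgeR called 0% of all genes (91 at an unadjusted p under 0.05, none of them a member, and 0 by DESeq2). These fits took no account of replicate number, and their lack of calls does not show that the populations are alike. None of 7 was called for the diet in CD24-high cells, where edgeR again called 0% (1042 at an unadjusted p under 0.05, and 73 genes or 0.472% by DESeq2, no member among them). For the diet in CD24-low cells edgeR called 0 of 7 members, against 16.4% of all genes. PROCR and ABCG2 had an unadjusted p under 0.05 there, as did 4787 of all 15461 genes tested. DESeq2 called 0 of 7 against 19.6% of genes. The libraries of both genes did not overlap between these groups, which held for 37.5% of all genes. The same 2 members did not overlap between FMD_HI and FMD_LO, which held for 31.4% of all genes. For the population difference averaged over diets edgeR called 0 of 7 against 7.53% of genes, and DESeq2 0 of 7 against 10.3%. In edgeR 3 members had an unadjusted p under 0.05 there, as did 2799 of all 15461 genes tested. For the change of the population difference with diet edgeR called 0 of 7 against 4.13%, and DESeq2 0 of 7 against 7.48%. In edgeR 2 members had an unadjusted p under 0.05 for that change, as did 2353 of all 15461 genes tested.

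**Figure D4:**
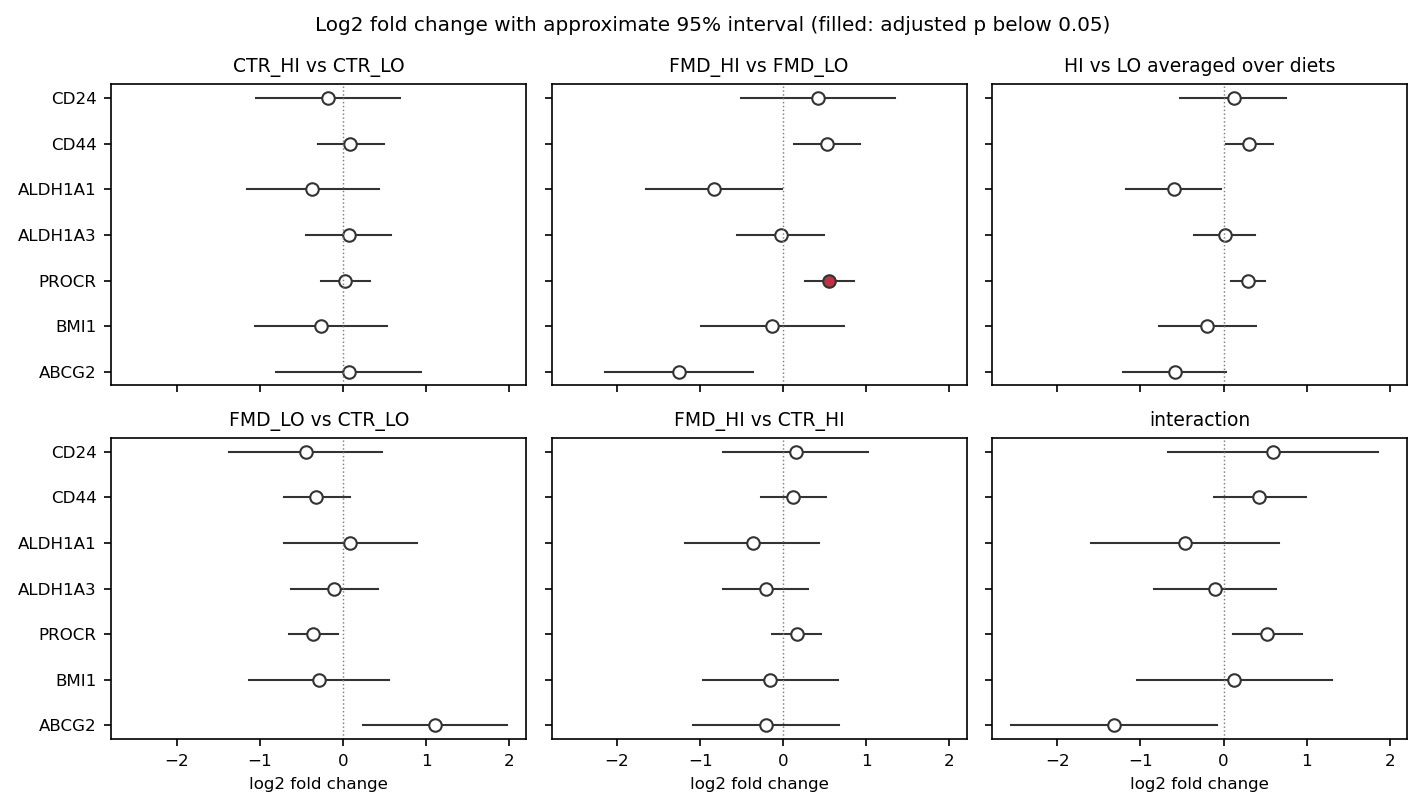
Log2 fold changes with approximate 95% intervals for 7 members in 6 comparisons, on a common axis. The filled point is the one call, PROCR in FMD_HI against FMD_LO at 0.55, and most other intervals include 0.

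Libraries with the same replicate number deviated together under the fasting-mimicking diet, so the differences within numbers are given. Under the control diet those of replicates 1 and 2 did so too, but not those of replicate 3. From replicate 1 to 3 the numbers carry no order. CD44 was higher in the CD24-high library by 0.44, 0.43 and 0.72 on the log2 scale, and PROCR by 0.54, 0.60 and 0.53. ALDH1A1 differed by −0.74, −0.33 and −1.07, and ABCG2 by −0.64, −2.43 and −0.69. These 4 genes went 1 way in all 3 pairs, which 63.1% of all genes did in that diet, so the share is near the background. On the control diet 20.5% of genes did so, and none of the 4 did: CD44 gave 0.39, 0.22 and −0.35, and PROCR 0.30, 0.15 and −0.34. With that block in the fasting-mimicking diet only, 2 of 7 members (CD44 and PROCR) were called against 16.8% of genes. A block of number within each diet, which also pairs the control libraries, called 4 of 7 (CD44, PROCR, ABCG2 and ALDH1A1) against 27.2% of genes. DESeq2 without a block called PROCR and ABCG2, 2 of 7 against 16.5%.

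**Figure D5:**
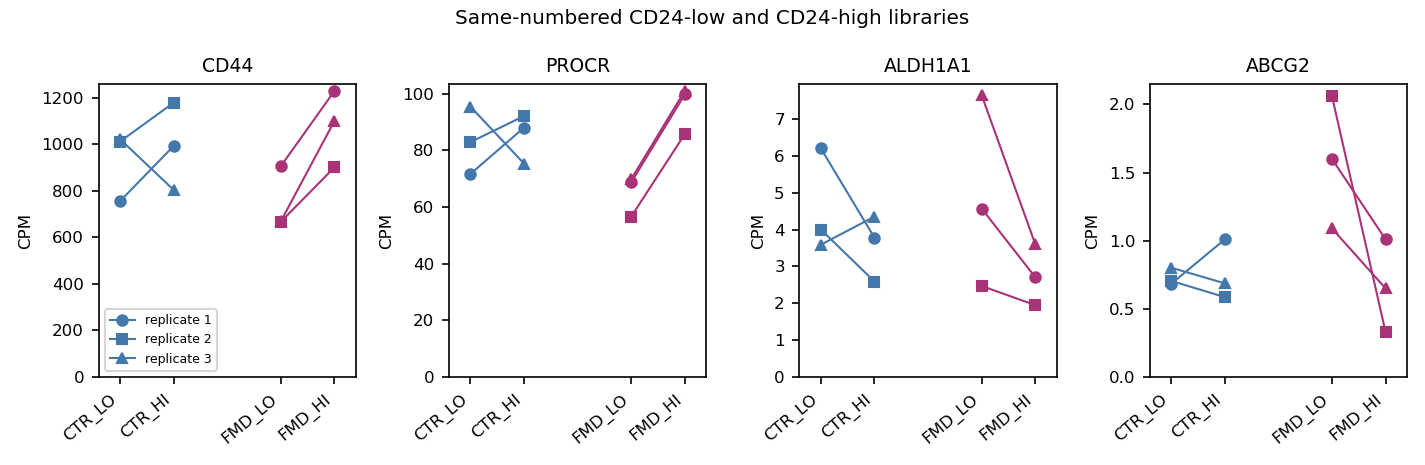
Scaled CPM (linear axes from 0) of 4 members in CD24-low and CD24-high libraries, joined where they share a replicate number. All 3 lines rise for CD44 and PROCR and fall for ALDH1A1 and ABCG2 under the fasting-mimicking diet, while they cross or run both ways under the control diet.

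The genes most correlated with each member were sought among the genes tested. Members, and symbols that begin with LOC or LINC or hold a hyphen or a dot, were left out. Those with the highest Pearson correlation to PROCR over the 12 libraries were TUFM (r = 0.981), ACO1 (0.96) and SLC37A2 (0.957). For CD44 they were PGAM1 (0.946), LPAR3 (0.943) and GUSBP1 (0.935). For ABCG2 they were FAM120A (0.912), TNFAIP8L3 (0.909) and DIAPH1 (0.903), and for CD24 FGF1 (0.897), RBM7 (0.893) and ZBTB10 (0.874). ALDH1A1 was most like ULK4 (0.874), ALDH1A3 like SPTB (0.851) and BMI1 like GNL3L (0.846). Each is the highest of many correlations over few libraries and is a description only.

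The genes that act with the members differed mainly between FMD_LO and the other groups, as calls over all genes did. Between the populations on the control diet, and for the diet in CD24-high cells, edgeR called 0% of all genes. The absence of calls there in the 9 partner lists below is therefore not particular to them. The counts that follow stand against 12% of all genes called higher and 4.33% lower in FMD_LO than in CTR_LO, and against 1.84% higher and 12.2% lower in FMD_HI than in FMD_LO. FMD_LO is also the group with the higher leukocyte, fibroblast and endothelial marker sums given above, whose part in these counts was not tested, nor was that of reads from host cells.

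Partners of CD44 that make, bind or cleave hyaluronan were called in both directions. Of 13 tested genes of hyaluronan synthesis and turnover, 4 were higher in FMD_LO than in CTR_LO and 2 lower, with a median difference of 0.46 against −0.03 over all genes. The hyaluronan synthase HAS1 was 12.7, 11.1 and 4.67 CPM in FMD_LO and at most 1.51 in every other library (3.79 ± 0.73, adjusted p = 0.00435). UGDH, which makes the precursor UDP-glucuronic acid, was higher by 0.90 ± 0.17 and HAS2 by 1.13 ± 0.26. In FMD_HI against FMD_LO, 4 of the 13 were lower and none higher, among them HAS1, UGDH and HAS2.

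Of 11 tested linkers, proteases and ligands of CD44, 3 were higher in FMD_LO than in CTR_LO and 1 was lower (median 0.25). The ligand SPP1 (osteopontin) was 13.4, 14.7 and 6.67 CPM in FMD_LO against 0.477, 1.55 and 1.43 in CTR_LO (3.36 ± 0.51, adjusted p = 0.00087). The sheddases ADAM10 and ADAM17, which cut the CD44 ectodomain, were higher by 0.59 ± 0.12 and 0.50 ± 0.16. MMP14, the most abundant of the list at 1137 CPM in CTR_LO and 1642 CPM in FMD_LO, missed the threshold there (adjusted p = 0.0574) and was lower in FMD_HI than in FMD_LO by −0.60 ± 0.18, 1 of 4 lower. Of 4 CD24 ligands, 2 could be tested, HMGB1 being the most abundant, and neither was called in any comparison (edgeR).

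Among 16 other aldehyde dehydrogenases, 2 (ALDH2 and ALDH1L1) were higher and 2 lower in FMD_LO than in CTR_LO, the latter led by ALDH4A1 (−0.83 ± 0.17; median of the list −0.21). ALDH2, the mitochondrial enzyme that clears acetaldehyde, was 9.56, 8.95 and 8.74 CPM in FMD_LO against 0.311, 1.51 and 0.267 in CTR_LO (3.76 ± 0.63, adjusted p = 0.00171). ALDH1L1, a folate enzyme, was higher by 1.20 ± 0.36. In FMD_HI against FMD_LO, ALDH2, ALDH1L1 and ALDH1L2 were lower and none was higher.

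Retinoid genes that differed between the populations under the fasting-mimicking diet were all lower in CD24-high cells. Of 14 tested, 8 were lower in FMD_HI than in FMD_LO and none higher (median −0.65 against 0.06 over all genes), and 4 were higher in FMD_LO than in CTR_LO with none lower (median 0.65). RDH10, which makes the retinaldehyde that ALDH1A enzymes use, was 12.3, 13.2 and 9.66 CPM in FMD_LO and 2.73 to 4.70 CPM in every other library (FMD_LO against CTR_LO 1.76 ± 0.22, adjusted p = 0.00016). The retinoic acid receptor RARG was lower in FMD_HI than in FMD_LO by −0.61 ± 0.13. RXRA, the most abundant of the list, was not called (0.25 ± 0.12, adjusted p = 0.198).

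Partners of BMI1 in Polycomb repressive complex 1 were largely level. RYBP (1.08 ± 0.17) and RNF2 (0.90 ± 0.16) were higher in FMD_LO than in CTR_LO, 2 of 18 tested, with a list median of 0.05. RNF2 is the catalytic subunit with which BMI1 pairs, and RYBP belongs to variant forms of the complex. Both were also lower in FMD_HI than in FMD_LO. CDKN2A and CDKN2B, the best-known targets of BMI1, had too few counts to be tested.

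Of 12 tested genes around PROCR in the protein C pathway, F5 was higher and F2RL2 and F2RL1 were lower in FMD_LO than in CTR_LO (median −0.07). F2RL2 and F2RL1, receptors activated by proteases, differed by −0.62 ± 0.16 and −0.42 ± 0.12. F5, the factor V gene, was 2.20, 2.24 and 0.868 CPM in FMD_LO and at most 0.283 CPM elsewhere. In FMD_HI against FMD_LO none was higher and 3 were lower, led by TFPI, an inhibitor of the tissue factor pathway (−1.02 ± 0.19, adjusted p = 0.00227). F2R, the thrombin receptor and the most abundant of the list, went from 225 CPM in FMD_LO to 276 in FMD_HI and was not called (0.30 ± 0.13, adjusted p = 0.16).

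Other efflux pumps showed 0 of 9 called for the diet in CD24-low cells (edgeR), and 1 of 9, ABCC2, was lower in FMD_HI than in FMD_LO (−0.83 ± 0.25, adjusted p = 0.0403). ABCC3, the most abundant pump, averaged 126 CPM in FMD_LO and 186 in FMD_HI (0.56, adjusted p = 0.208).

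Of 21 other tested mammary stem and progenitor markers, 6 were higher and 2 lower in FMD_LO than in CTR_LO (median 0.13). The chemokine receptor CXCR4 was 17.7, 22.3 and 28.8 CPM in FMD_LO and at most 1.69 elsewhere (4.93 ± 0.67, adjusted p = 0.000535). DCLK1, a kinase that marks tuft cells, was 14.4, 11.7 and 10.6 CPM in FMD_LO against 5.14, 5.17 and 2.14 in CTR_LO (1.55 ± 0.31, adjusted p = 0.00402). KIT, a receptor of luminal progenitors and of mast cells, had 126 counts in FMD_LO and none in FMD_HI, at least 83.2-fold higher when 3 counts over the group are taken as the floor. The integrin subunit ITGA6 was lower by −0.86 ± 0.17. In FMD_HI against FMD_LO, 4 of the 21 were higher and 4 lower. MYC, the most abundant of the list, was 1531 CPM in CTR_LO and 1844 CPM in FMD_LO and was not called (0.27 ± 0.24, adjusted p = 0.478).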

How the data were processed

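The deposited files hold whole-number read counts per gene made with STAR against hg38, per the submitters' processing notes; the STAR version, the annotation and any removal of mouse reads are not given in the sources used here. Libraries were stranded mRNA preparations from 500 ng of RNA, per the labels' protocols. The counts of the authors' reverse-strand column were used, since opposite-strand counts made up only 1.59 to 1.75% of a library. Genes were kept by filterByExpr, scaled by TMM and fitted in 1 model of 4 groups with edgeR 4.0.16 (robust quasi-likelihood, 8 residual degrees of freedom) in R 4.3.3, and p-values were adjusted over 15461 genes, with calls below 0.05. CPM are TMM-scaled, and CPM per kilobase use GENCODE 29 exon unions. The standard error of a log2 fold change is its size over the root of F, and intervals built on it are approximate. DESeq2 1.42.0 was an alternative. The pipeline was tested on simulated data.

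The members and the 16 partner and marker lists were chosen with earlier results of these data known. Every member was named; of each partner list, up to 3 called genes with the smallest p and the most abundant gene, and the 3 genes most correlated with each member (1 for the last 3 members). CDKN2A, CDKN2B and PGR were named after their low counts were seen. A gene that this rule names is not reported here. Coordinates are from RefSeq (GRCh38.p14), and CEMIP2 was found as TMEM2. Pairing was checked by correlating same-numbered libraries' deviations from group means: r was 0.285 to 0.485 for FMD_LO with FMD_HI, 0.0373 to 0.522 for CTR_LO with CTR_HI and −0.221 to 0.0824 between diets. In the control diet replicates 1 and 2 gave 0.445 and 0.522, as high as in the fasting-mimicking diet, and replicate 3 gave 0.0373. Because of that replicate, numbers were taken as pairs in the fasting-mimicking diet only, from the data and not from the labels. The check does not settle whether control numbers are pairs. That block was added after the data were seen.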

Additional observations from a re-analysis of the deposited data

Results flagged for a closer look

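For 3 genes of the partner lists the CD24-high to CD24-low difference changed with diet by the test of that change itself (edgeR, adjusted p over all genes tested). CXCR4 changed by −4.15 ± 0.97 (log2, adjusted p = 0.037), with 22.9 CPM on average in FMD_LO and 0.563 to 0.965 in the other groups. DCLK1 changed by −2.87 ± 0.46 (adjusted p = 0.00384), with 12.2 CPM in FMD_LO and 1.01 in FMD_HI against 4.15 in CTR_LO and 2.50 in CTR_HI. RDH10 changed by −1.90 ± 0.32 (adjusted p = 0.00443), with 11.7 CPM in FMD_LO and 3.15 to 3.48 in the other groups. The same test passed 4.13% of all genes, 638 genes, of which 630 had a change below 0. That direction is therefore not particular to these 3 genes. Among the 638 were 4 of 10 tested leukocyte markers and 4 of 11 tested fibroblast markers, all 8 with a change below 0 as well. No member passed the test. Groups of 3 libraries are too small for the test of single outlying libraries.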

How the results depend on the processing

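The other settings tried were counts of either strand, RLE scaling, no filter on low counts, DESeq2, only the groups compared, 3 replicate blocks (over 3 levels, within each diet and in the fasting-mimicking diet only) and leaving out each library. The fit of only the groups compared was not run for the 2 comparisons over all groups, nor the block within diet for the comparisons between diets. Of the members' log2 values under other settings, 719 kept direction and side of the threshold, 13 came to pass it and 3 no longer did, all 3 for PROCR between the populations under the fasting-mimicking diet. Another 42 changed sign. Low counts limit precision most for PROM1, ABCG2, BMI1 and CD24, and FMD_LO is the shallowest group. Unless stated, the cause of a change was not tested.

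For FMD_HI against FMD_LO, members called were 2 without a filter (CD44 and PROCR), 2 with DESeq2, 4 with the replicate block within diet and 2 with the replicate block in the fasting-mimicking diet only, and 0 to 2 on leaving out a library. The block within diet raised the genes called there to 4201, from 2163. Averaged over diets it gave 3 members (CD44, ALDH1A1 and PROCR, against 16.5% of genes) and 2549 genes, from 1164, and for the change with diet 1702 genes, from 638. Leaving out a library gave 0 or 1 member averaged over diets, the 1 being PROCR without CTR_LO replicate 3 (0.36, adjusted p = 0.0447). DESeq2 called 1156 genes for the change with diet. For FMD_HI against CTR_HI, 73 genes were called with DESeq2, 1 without a filter, 1 with the replicate block over 3 levels and 0 to 1 on leaving out a library. Leaving out a library gave 1562 to 2795 genes for FMD_LO against CTR_LO (lowest without FMD_LO replicate 2, then 1577 without CTR_LO replicate 3 and 1662 without FMD_LO replicate 1) and 380 to 767 for the change with diet (380 without FMD_LO replicate 2, 403 without FMD_HI replicate 2, 409 without CTR_LO replicate 3 and 412 without FMD_LO replicate 1). The block over 3 levels changed no member's call.

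Signs turned only for differences that were not called. With that block ALDH1A1 in FMD_LO against CTR_LO was −0.01, and ALDH1A3 in FMD_HI against FMD_LO was 0.05 with either strand and 0.0011 without a filter. On leaving out a library, FMD_LO against CTR_LO ran from −0.40 to 0.41 for ALDH1A1 and from −0.25 to 0.03 for ALDH1A3. FMD_HI against CTR_HI ran from −0.30 to 0.57 for CD24, −0.01 to 0.27 for CD44, −0.38 to 0.0022 for ALDH1A3, −0.56 to 0.11 for BMI1 and −0.61 to 0.12 for ABCG2. CTR_HI against CTR_LO ran from −0.60 to 0.08 for CD24, −0.06 to 0.23 for CD44, −0.06 to 0.21 for ALDH1A3, −0.07 to 0.15 for PROCR and −0.19 to 0.21 for ABCG2. FMD_HI against FMD_LO ran from −0.02 to 0.64 for CD24, −0.19 to 0.19 for ALDH1A3 and −0.56 to 0.14 for BMI1. Averaged over diets, CD24 ran from −0.10 to 0.25 and ALDH1A3 from −0.06 to 0.13. The change with diet ran from −0.77 to 0.04 for ALDH1A1, −0.26 to 0.11 for ALDH1A3 and −0.30 to 0.41 for BMI1.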
